A study of Rattus norvegicus with 14 samples.

Results

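The Fos, Jun and Egr transcription factors were followed in the hippocampal subfield CA3 of rats at the level of their messenger RNA. The members were every probe set that the platform annotation assigns to Fos, Fosb, Fosl2, Jun, Junb, Egr1, Egr2, Egr3 or Egr4 alone, which gave 14 probe sets of 9 genes among the 15923 on the array. The learning group comprised 7 young male Long-Evans rats, 3 to 4 months old, given a session of 8 trials, 8 min apart, in an unfamiliar water maze with orienting cues and a visible platform kept in one location. The control group comprised 7 rats of the same sex, strain and age whose visible platform changed location between trials, in a maze without informative cues. Both groups had passed through ordinary water maze training 2 to 3 weeks earlier, and both ended with a probe trial of 90 s, 1 h after the last training trial, directly before the tissue was taken. Swimming, handling and the probe trial were therefore common to both groups, no untrained rats were analysed here, and the cues differed between groups together with the stability of the platform. The comparison asks which transcripts of CA3 differ between a session with cues and a stable platform and one without them. No measure of what the rats learned was used here.

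Fos and Jun proteins pair through leucine zippers to form AP-1, a complex that binds DNA and regulates transcription. Egr proteins bind GC-rich DNA through zinc fingers. In neurons, synaptic activity and calcium entry switch on most of these genes within minutes, through kinases that act on the factors SRF and CREB, and the transcripts are short-lived. Fos and Egr1 are for that reason widely used in the hippocampus as markers of recently active neurons.

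Promoter sequence with the motifs of SRF and CREB is shown for Egr2 and Junb as examples of promoters with these letters. They were picked as the tested members of lowest p, which lends no weight to Egr2, since its learning mean was under the limit for dim probe sets. RefSeq windows of the GRCr8 build, from 250 bases before to 50 after the gene start, were matched for 6 of the 9 genes, all but Fos, Jun and Egr3. The stretch from base -200 to base -1 before the start is given 5′ to 3′ on the gene's strand, Egr2 at chr20:21054442-21054641 on the minus strand and Junb at chr19:40080926-40081125 on the plus strand. Capitals mark a CArG box, the core of the serum response element, and TGACG, the core of a cAMP response element, in either orientation.
Egr2: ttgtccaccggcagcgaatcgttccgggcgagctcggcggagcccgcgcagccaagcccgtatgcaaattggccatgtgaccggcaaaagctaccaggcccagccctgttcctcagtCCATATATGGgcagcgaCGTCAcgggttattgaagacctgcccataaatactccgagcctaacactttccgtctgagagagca
Junb: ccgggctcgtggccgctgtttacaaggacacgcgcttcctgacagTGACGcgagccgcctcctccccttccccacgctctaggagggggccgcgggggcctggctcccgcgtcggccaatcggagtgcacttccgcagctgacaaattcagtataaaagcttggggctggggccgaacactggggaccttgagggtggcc
In Egr2 the CArG box began 83 bases and TGACG 66 bases before the start, and in Junb TGACG began 155 bases before it. A CArG box was found in 2 of the 6 member windows, those of Egr1 and Egr2, and in 1.64% of the 33469 windows in the table. TGACG was found in 4 of the 6, those of Junb, Egr1, Egr2 and Egr4, and in 21.2% of all windows. The full element TGACGTCA, which contains TGACG, and the AP-1 motif TGANTCA were found in 0 of the 6 windows, against 1.83% and 7.33% of all. The Egr motif GCGNGGGCG was found in 1, that of Fosl2, against 4.98% of all.

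Arrays gave 1 value per animal and probe set, on a log2 scale. Column medians lay between 5.07 and 5.09, and correlations between arrays ranged from 0.983 to 0.995. Of 11 markers of CA3 pyramidal neurons, 7 were on the array and 4 above the dim limit (a mean log2 level of 3.88, the 40th percentile), and their mean ranged from 7.74 to 8.19 in learning and from 7.80 to 8.12 in control arrays. The kainate receptor Grik4, the defining one, had 7.94 ± 0.11 in learning and 7.95 ± 0.19 in control animals (SD, n = 7 each), while Socs2, Col6a1 and St18 were dim. The tissue also held other cells. The mean of 4 of 12 dentate granule markers ranged from 6.73 to 7.19 in learning and from 6.64 to 7.30 in control arrays, with Prox1, the defining one, at 5.15 ± 0.21 and 5.35 ± 0.50, and that of 7 of 8 CA1 markers from 7.70 to 8.20 and from 7.45 to 8.45. The 3'/5' signal ratio of Gapdh, a sign of RNA integrity, was 0.45 ± 0.05 in learning and 0.51 ± 0.06 in control arrays on the log2 scale (n = 7 each, two-sided exact permutation p = 0.0443). For actin this ratio was 1.31 ± 0.03 and 1.36 ± 0.15 (exact permutation p = 0.460). For hexokinase it was 1.30 ± 0.05 and 1.53 ± 0.49 (exact permutation p = 0.281). Spike-in probe sets averaged 9.19 ± 0.17 in learning and 8.99 ± 0.12 in control arrays (exact permutation p = 0.00524). Markers of some other cells differed too. Of choroid plexus markers, 3 of 9 averaged 5.23 ± 0.28 in learning and 6.15 ± 0.59 in control arrays (exact permutation p = 0.00117). Endothelial ones, 4 of 8, averaged 6.19 ± 0.18 and 6.38 ± 0.09 (exact permutation p = 0.0117). Astrocyte ones, 6 of 6, averaged 10.87 ± 0.06 and 10.95 ± 0.05 (exact permutation p = 0.0198). Aqp4 (10.50 in learning and 10.54 in control arrays) and Gja1 (12.45 and 12.46) entered this astrocyte mean by 1 probe set each. Another tested probe set of each gene was higher in learning. There Aqp4 differed by 1.10 (limma adjusted p = 0.0163) and Gja1 by 0.74 (limma adjusted p = 0.0301). Among the choroid plexus markers, Ttr (5.46 in learning and 7.55 in control arrays) and Igfbp2 (6.23 and 6.93) carried the difference, Kcne2 had 3.99 and 3.98, and the other 5 on the array were dim. Microglia, oligodendrocyte and interneuron marker means had higher p-values (exact permutation p = 0.163, 0.107 and 0.800). The p-values of all these quality and marker measures are unadjusted. The part of these cell types in the members' differences was not tested. In bulk tissue, fewer cells of a type and less RNA per cell cannot be told apart, and this holds for every level given here.

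None of the 9 member genes differed between the groups past the threshold of an adjusted p under 0.05. Of the 14 member probe sets 9, from 7 genes, were above the dim limit and were tested with limma among 9520 probe sets. Of these 9, 0 were called, where 3.35% of all tested probe sets were. At an unadjusted p under 0.05 the members numbered 2 of 9, against 19.9% of all tested probe sets. The Egr2 probe set was above the limit in the control group alone, and without it the count was 1 of 8. All 9 had a lower mean in the learning group, as did 58.0% of all tested probe sets, and their median difference was -0.10 on the log2 scale against -0.02 over all. Without Egr2 the median was -0.09. These 9 values come from the same 14 animals, and 3 of them are of Jun.

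Fos, the founding member of its family and partner of Jun in AP-1, had at its brighter probe set (1375043_at) log2 levels from 5.48 to 6.56 with a median of 5.89 in learning animals. In control animals they ran from 5.83 to 6.49 with a median of 6.11. The groups overlapped over most of their range: both the lowest and the highest animal of the study were learning animals, and 6 of 7 learning animals lay below the control mean. The difference was -0.20 (SE 0.14, 95% interval -0.50 to 0.10, limma adjusted p = 0.451), a ratio of 0.87 with an interval from 0.707 to 1.07. It was -0.12 without learning animal 1 and -0.30 without learning animal 4. The other Fos probe set (1371283_at) stayed between 2.58 and 2.61 in learning and between 2.57 and 2.61 in control animals. It is dim, and its difference was 0.00 on the log2 scale.

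Fosb, whose truncated product ΔFosB is known to accumulate with repeated activity, had at its probe set (1373759_at) levels of 4.21 to 4.70 (median 4.57) in learning and of 4.52 to 4.997 (median 4.59) in control animals. Of the learning animals 3 lay below every control animal, 2 of them at 4.21, and control animal 2 lay above every learning animal. The difference was -0.16 (95% interval -0.35 to 0.03, limma adjusted p = 0.330), and without control animal 2 it was -0.10. The transcript forms of Fosb were not told apart here. Fosl2, a Fos relative that lacks the strong activation domain, was dim (1387530_a_at), with 2.30 to 2.83 (median 2.59) in learning and 2.15 to 2.52 (median 2.25) in control animals.

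Fosl2 was the member with the largest difference upward, 0.24 on the log2 scale with a 95% interval from 0.04 to 0.44, in the limma fit without a dim filter, where 0.996% of 15866 probe sets were called. It was not called (unadjusted p = 0.0211, adjusted p = 0.247), and 4 of 7 learning animals lay above the highest control animal. Its levels lie at the 15.5th percentile of all probe sets and are not shown to be above background.

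Jun, the DNA-binding partner common to many AP-1 dimers, was measured by 3 probe sets, 2 of them of a kind whose probes can match more than 1 transcript. At the brightest (1389528_s_at) the learning animals had 9.09 to 9.50 (median 9.48) and the control animals 9.35 to 9.65 (median 9.46). In the learning group 6 animals lay within 9.37 to 9.50, and animal 7 stood apart at 9.09. The difference was -0.08 there (95% interval -0.22 to 0.06, limma adjusted p = 0.546), and -0.03 without learning animal 7. The next probe set (1369788_s_at) ran from 7.90 to 8.33 in learning and from 7.95 to 8.46 in control animals, with a difference of -0.10 (95% interval -0.28 to 0.08, limma adjusted p = 0.536), which was -0.06 without learning animal 7 and -0.07 without control animal 6. The dimmest (1374404_at) ran from 6.55 to 7.23 in learning and from 6.505 to 7.24 in control animals, with a difference of -0.05 (95% interval -0.30 to 0.21, limma adjusted p = 0.875).

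Junb, an AP-1 subunit that can restrain Jun, had at its probe set (1387788_at) 7.12 to 7.47 (median 7.27) in learning and 7.25 to 7.83 (median 7.45) in control animals. Each learning animal lay below the control mean, 3 lay below the lowest control animal, and 2 control animals lay above all learning animals. The difference was -0.21 (SE 0.08, 95% interval -0.38 to -0.04), a ratio of 0.864. It was not called (unadjusted p = 0.0193, limma adjusted p = 0.157), and without control animal 4, the highest of all, it was -0.15.

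Egr1, also known as Zif268 and tied by earlier work to lasting synaptic potentiation, had at its probe set (1368321_at) 9.53 to 9.84 (median 9.69) in learning and 9.57 to 9.94 (median 9.77) in control animals. Of the learning animals 1 lay below every control animal, and 2 control animals lay above every learning animal. The difference was -0.08 (SE 0.06, 95% interval -0.20 to 0.05, limma adjusted p = 0.493), a ratio of 0.947 with an interval from 0.868 to 1.03. It was -0.05 without control animal 4 and likewise without learning animal 7. For this gene an increase of more than 1.03-fold in the learning group thus lay outside the interval.

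Egr2, known also for its part in myelination by Schwann cells, was near the dim limit at its brighter probe set (1387306_a_at), with a mean of 3.85 in learning animals, under the limit, and of 4.005 in control animals, above it. It thus passed the filter through the control group alone, so that a lower learning mean was built into its test, and its p supports nothing here. Its levels ran from 3.73 to 3.93 (median 3.89) in learning and from 3.85 to 4.196 (median 4.02) in control animals. All 7 learning animals lay below the control mean, and 5 of 7 control animals lay above the highest learning animal. The difference of -0.15 (SE 0.05, 95% interval -0.27 to -0.04) had the lowest p of the members and was not called (unadjusted p = 0.0106, limma adjusted p = 0.119). Lower values at an unadjusted p under 0.05, as found for Egr2 and Junb, made up 10.6% of all tested probe sets. The second Egr2 probe set (1398266_a_at) was dim, at 2.18 to 2.19 in learning and likewise 2.18 to 2.19 in control animals.

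Egr4 had 6.37 to 6.57 (median 6.52) in learning and 6.46 to 6.57 (median 6.53) in control animals at its brighter probe set (1387442_at). Its difference was -0.01 with a 95% interval from -0.09 to 0.06 (limma adjusted p = 0.896), the narrowest interval among the tested members. The other Egr4 probe set (1375784_at) was dim (2.54 to 2.58 in learning, 2.54 to 2.56 in control animals). Egr3, a relative of Egr1 that is also induced by activity, was measured by a single probe set (1369545_at), which was dim with 2.55 to 2.63 in learning and 2.54 to 2.58 in control animals.

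**Figure D1:**
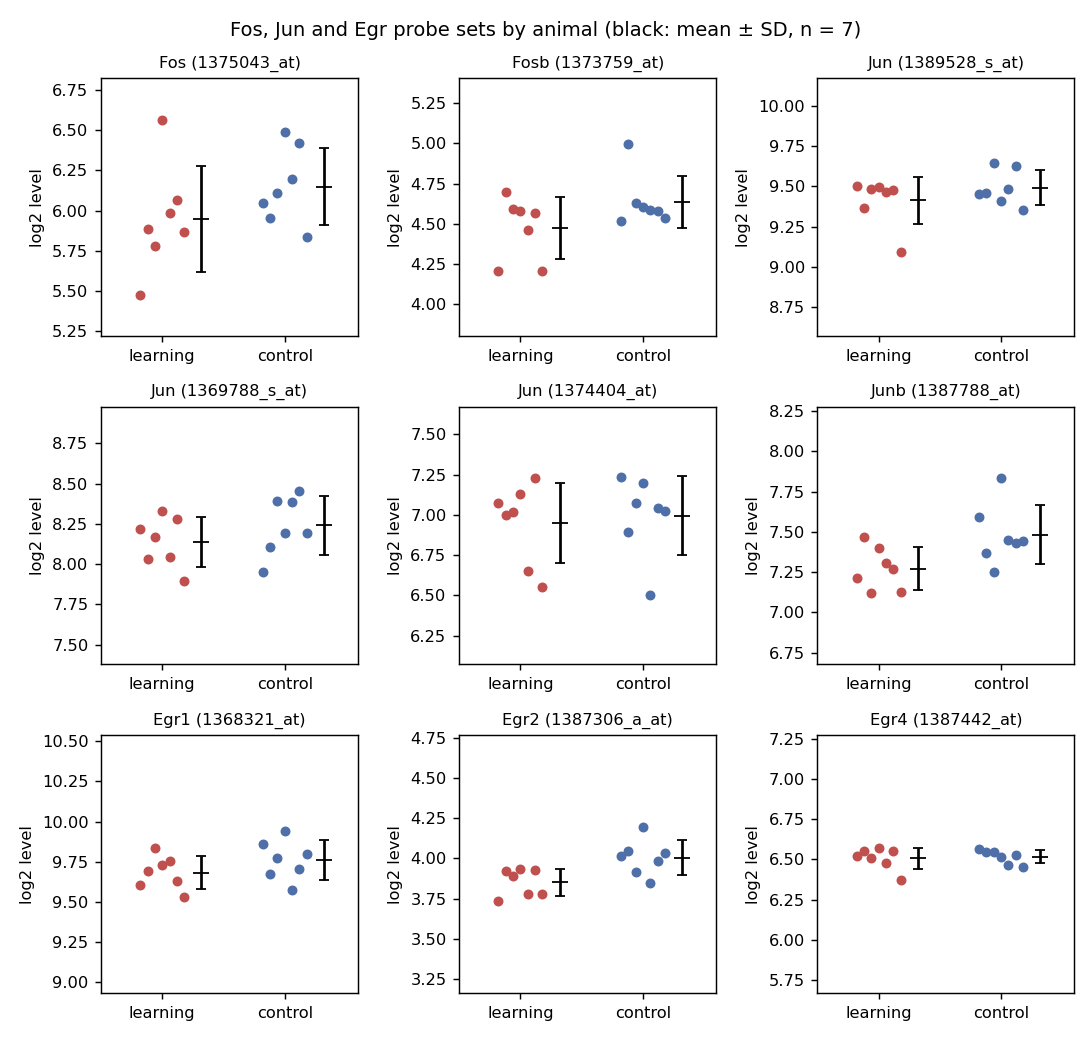
Log2 level (y axis, 1.6 units high in each panel) of the 9 tested probe sets in each animal, learning (red) left of control (blue), with mean ± SD in black (n = 7 each). In each panel the 2 groups overlap, and in each the learning mean is the lower one.

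**Figure D2:**
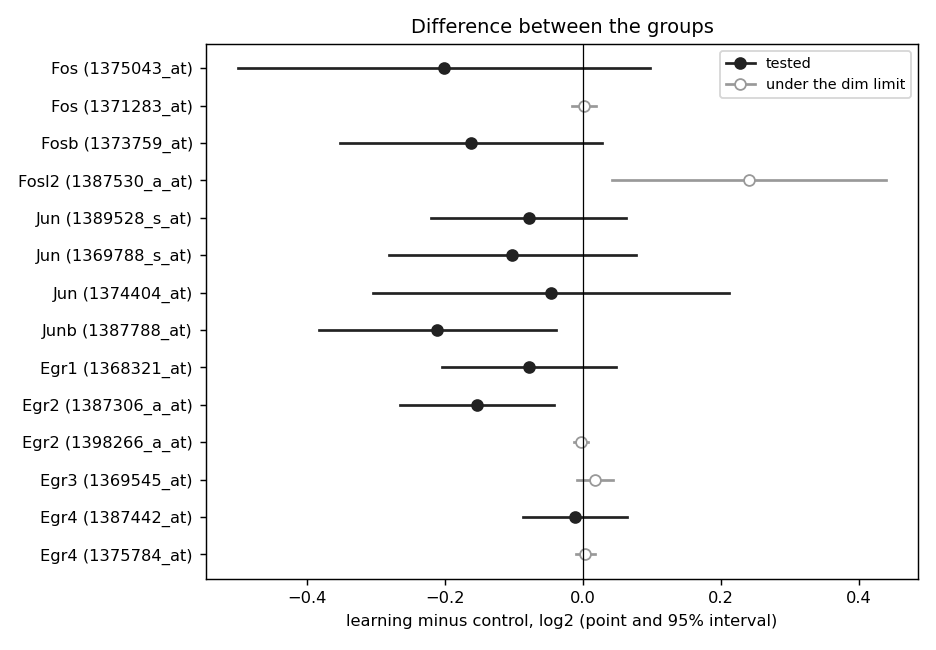
Learning minus control difference (x axis, log2) with its 95% interval for the 14 member probe sets, from limma. Filled points were tested after the dim filter and open points are dim ones from the fit without it. The intervals of Junb, the brighter Egr2 probe set and Fosl2 leave out 0, but none of the 14 passed after adjustment.

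Animals varied among themselves more for some members than for others. Fos had a within-group SD of 0.288, higher than that of 95.03% of tested probe sets, whereas Egr4 had 0.0555, higher than that of 7.07%. The SDs of Fosb, Junb and Egr1 lay at the 81.4th, 76.1st and 51.7th percentile. SDs can depend on the level, and these ranks are a description. The spread itself was compared between the groups by a two-sided permutation test of the mean absolute deviation from the group median. Each array's deviation was taken once, from the median of its own group, and then reassigned over all assignments of the 14 arrays. Medians were not recomputed, so these p-values are approximate. For Fos the mean deviation was 0.213 in learning and 0.181 in control animals (permutation p = 0.783), and for Fosb 0.14 and 0.0862 (permutation p = 0.505). None of the 9 member probe sets had an unadjusted p under 0.05, which 2.65% of all tested probe sets had. After adjustment 0 of the 9520 passed, 252 having an unadjusted p under 0.05, against 1009 with deviations from the group mean.

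Within each group, levels of different members were compared across animals. Between the brightest tested probe sets of 7 genes, all 21 pairs had a Pearson r above 0 in the learning group, with a median of 0.49 and a range from 0.13 to 0.88. By rank, 17 of the 21 had a rho above 0, Jun with Egr2 was at 0, and Jun with Fos, Fosb and Junb was below 0, with a median rho of 0.39. In the control group 14 of 21 pairs were above 0, with a median of 0.18 and a range from -0.55 to 0.79, and by rank 13 of 21, with a median rho of 0.11. Over all pairs of 6836 tested genes the median r was 0.00491 in learning and 0.0125 in control animals, and 50.4% and 51.0% of pairs were above 0. An r above 0.5 was reached by 10 of 21 member pairs in learning and 4 of 21 in control animals, against 13.5% and 13.8% of all gene pairs. The 21 pairs share 7 genes and 7 animals, and the difference in r between the groups was not tested.

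Single pairs did not pass after adjustment. Of 42 correlations, 21 in each group, 1 in each group had an unadjusted exact p under 0.05, and the lowest adjusted p was 0.489. In learning animals the highest was Fosb with Egr2 (r = 0.88, exact permutation p = 0.0137, rho = 0.68, exact p = 0.110, n = 7). Its r was 0.74 without the 2 animals farthest from the median of Fosb. The learning mean of Egr2 was under the dim limit. In control animals the highest was Egr1 with Egr2 (r = 0.79, exact permutation p = 0.0385, rho = 0.57, exact p = 0.2, n = 7). Its r was -0.05 without the 2 animals farthest from the median of Egr1. Leaving out the farthest animals also narrows the range, which can lower r by itself, so this step is a description. The Pearson r of Fos was highest with Egr2 in learning (0.63) and with Junb in control animals (0.52), and that with Egr1 was 0.23 and 0.18. Without the 2 animals farthest from the median of Fos, r was 0.07 for Fos with Egr2 in learning and -0.09 for Fos with Junb in control animals. For Fos with Egr1 it was then -0.32 in learning and -0.48 in control animals.

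Some animals stood on 1 side of their group for many members. Learning animal 7 lay below its group mean in all 7 genes, with a mean deviation of -1.37 SD, and was the lowest of its group for Jun, Egr1 and Egr4. Learning animal 4 lay above the mean in all 7 and was the highest for Fos, Egr2 and Egr4. Control animal 4 was the highest of its group for Fos, Junb, Egr1 and Egr2. Without learning animal 7 the median r of that group was 0.38 and 14 of 21 pairs were above 0, and without control animal 4 the control median was -0.01 with 10 of 21 above 0. The Gapdh 3'/5' ratio of learning animal 7 was 0.513, the highest of its group, and with that ratio taken out the learning median r was 0.30. With the same step the control median was 0.17.

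**Figure D3:**
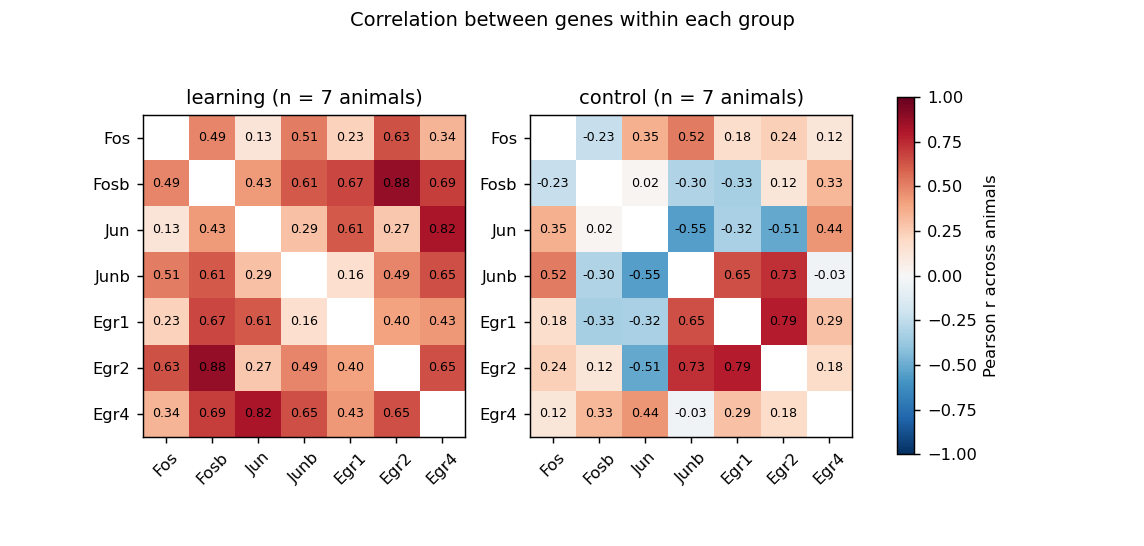
Pearson r across animals (colour and number) between the brightest tested probe sets of 7 genes, learning left and control right (n = 7 animals each). All 21 pairs are positive by Pearson r in the learning group (17 of 21 by rank), and 14 of 21 in the control group, where Jun with Junb is lowest at -0.55.

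**Figure D4:**
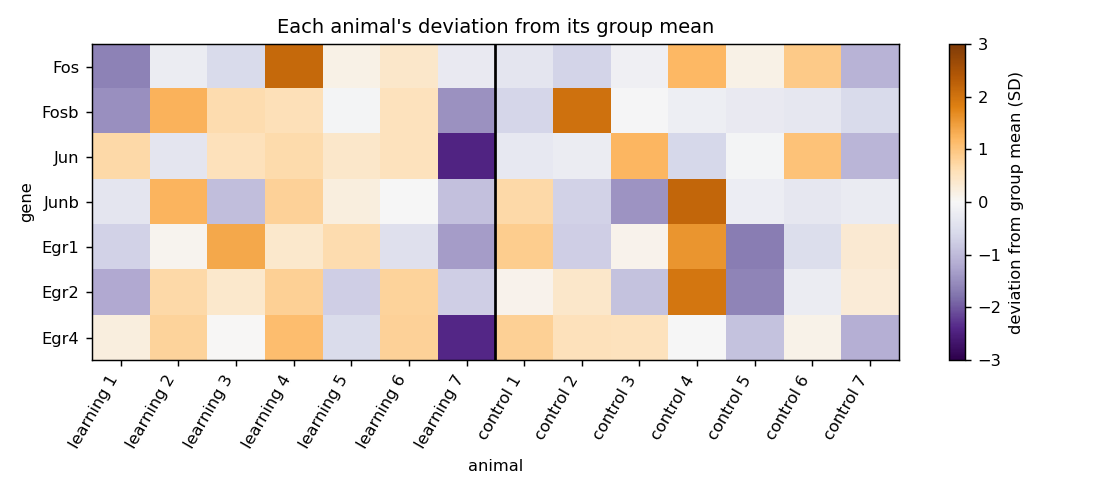
Deviation of each animal (x axis) from its group mean for 7 genes (y axis), in units of the within-group SD. Learning animal 7 is below its group mean in all 7 genes and learning animal 4 above it, while control animal 4 is the highest of its group in 4 genes.

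Within the same gene, the 3 Jun probe sets had r of 0.82, 0.72 and 0.88 between them in learning animals and of 0.65, -0.03 and -0.44 in control animals. Of these 6 relations, 2 in the learning group had an adjusted p of 0.0113 by exact permutation (n = 7), with rank correlations of 0.82 (exact p = 0.0341, adjusted p = 0.102) and 0.93 (exact p = 0.00675, adjusted p = 0.0405). Without the 2 animals farthest from the median of the brighter probe set of each pair, their r was 0.74 and 0.79. In the annotation 2 of the 3 share a source accession, and the difference between the groups was not tested.

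Members were also set against measures of RNA quality and tissue. For Egr1 and the Gapdh 3'/5' ratio, over the 14 deviations from group means r was -0.71 (permutation p = 0.00738, and 0.258 after adjustment), with a rank correlation of -0.63 (permutation p = 0.0222, and 0.466 after adjustment). Without the 2 arrays farthest from the median of the Gapdh ratio deviations, r was -0.42. This was the strongest of 35 relations between 7 members and 5 measures (the Gapdh, actin and hexokinase ratios, the dentate marker mean and the spike-in mean), of which 0 passed after adjustment. With the Gapdh ratio as covariate the difference in Egr1 was -0.17 (limma adjusted p = 0.181).

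Genes whose level followed Fos most closely across animals were genes outside the 3 families. Over the 14 deviations from group means and 7966 probe sets with 1 gene, the highest r with Fos were those of Herc4 (0.83), Top1 (0.80), Yme1l1 (0.78), Fnbp1 (0.78) and Dyrk2 (0.78). Junb, the member most like Fos, had 0.49 and ranked at place 349. For Egr1 the highest were Lancl2 (0.85), Ndfip2 (0.84), Kcna1 (0.83), Lrrc49 (0.82) and Ptprs (0.81). Egr2 had 0.63 with Egr1, at place 72. These are the extremes of many comparisons over 14 arrays and are given without a test.

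Transcripts of proteins that work with the members were counted by list, each gene by its brightest probe set. All lists used from here on were chosen with earlier results of these data known. Their counts and medians are therefore a description, and whether a list differs from all genes was not tested. Over all 6836 tested genes counted in this way, 2.57% were called, 1.59% were called higher in learning, 0.951% had every learning animal above every control animal, and the median difference was -0.03. Among 14 AP-1 partners and relatives, 10 were on the array and 5 above the dim limit, and of these 1 rose, 0 fell and 4 did not pass. Atf2, which binds DNA with Jun, had 5.10 to 6.23 (median 5.52) in learning and 4.05 to 5.04 (median 4.81) in control animals, without overlap. It rose by 0.91 on the log2 scale (SE 0.18, limma adjusted p = 0.0156), and this call was lost only with the Gapdh ratio as covariate among 26 alternatives (adjusted p = 0.127). Atf4 (-0.09), Mafg (0.14, and -0.08 at its other tested probe set) and Jund (-0.02, with the sign turned without learning animal 2, control animal 4 or control animal 7), a Jun family member that is usually less inducible, did not pass. The median of the list was -0.01.

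Both corepressors that bind Egr proteins were measured. Nab1 had 6.07 to 6.73 (median 6.36) in learning and 5.74 to 5.93 (median 5.89) in control animals, again without overlap. It rose by 0.48 (SE 0.08, limma adjusted p = 0.00581), and it was called in each of 26 alternatives, at adjusted p-values up to 0.0475. Nab2, which is itself induced by Egr1, was at 5.40 to 5.47 in learning and 5.33 to 5.52 in control animals, a difference of -0.01 (adjusted p = 0.881).

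Of 30 kinases and factors upstream of Fos and Egr1, 18 were on the array and 16 above the dim limit. Of these 1 rose, 0 fell and 15 did not pass, against 2.57% called over all genes, with a median of 0.00. Camk2a, a calcium-dependent kinase of synapses, rose by 0.76 at its brightest probe set (limma adjusted p = 0.0150) and by 0.54 at another (adjusted p = 0.0381), while the remaining one had 0.04 (adjusted p = 0.953). The first call was lost with the spike-in mean as covariate (adjusted p = 0.0973). Camk4, a nuclear kinase that phosphorylates CREB, had a difference of 0.78 and did not pass (adjusted p = 0.0710). Srf, the factor that binds the CArG box, had -0.14 (adjusted p = 0.120). The kinases of the ERK pathway Map2k2 and Map2k1 had -0.10 and 0.06.

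Among 44 other genes known to respond early to neuronal activity, 38 were on the array and 27 above the dim limit. By the brightest probe set 1 rose, 0 fell and 26 did not pass, against 2.57% called over all genes, and their median difference was 0.00. Homer1, a scaffold of the synapse with 5 tested probe sets, counted among the 26 with 0.11 (limma adjusted p = 0.339), but another of its probe sets rose by 0.67 (adjusted p = 0.00593). It was singled out after its values were seen. The gene that rose by the brightest probe set was Nr4a3, an orphan nuclear receptor, with 8.97 to 9.38 (median 9.19) in learning and 8.63 to 9.09 (median 8.88) in control animals, where 6 of 7 learning animals lay above the highest control animal. Its difference of 0.30 (SE 0.08, limma adjusted p = 0.0421) was near the threshold and was called in 8 of 27 alternatives. Its relative Nr4a2 had 0.49 and did not pass (adjusted p = 0.0788), and had 0.22 at its other tested probe set (adjusted p = 0.269). Dusp5 and Dusp1, MAP kinase phosphatases, had 0.19 and -0.12, and the kinases Sgk1 and Plk2 had 0.05 and 0.07, where the sign of Sgk1 turned without learning animal 7 or control animal 4.

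Of 17 genes reported as AP-1 or Egr targets in neurons, 16 were on the array and 11 above the dim limit, of which 1 rose, 0 fell and 10 did not pass, against 2.57% called over all genes, with a median of 0.09 against -0.03. Gabra4, a GABA-A receptor subunit reported as a target of Egr3, rose by 0.81 (SE 0.12, limma adjusted p = 0.00323), with medians of 6.08 in learning and 5.37 in control animals and no overlap. The synaptic vesicle genes Syn1 (0.17, adjusted p = 0.0611) and Syn2 (0.43, adjusted p = 0.0692) and the enkephalin precursor Penk (-0.29, adjusted p = 0.141) did not pass. At their other tested probe sets, Syn1 had 0.16 (limma adjusted p = 0.112) and Syn2 0.09 (limma adjusted p = 0.458). The AMPA receptor subunit Gria2 had 0.08, and 0.00 at its other tested probe set.

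**Figure D5:**
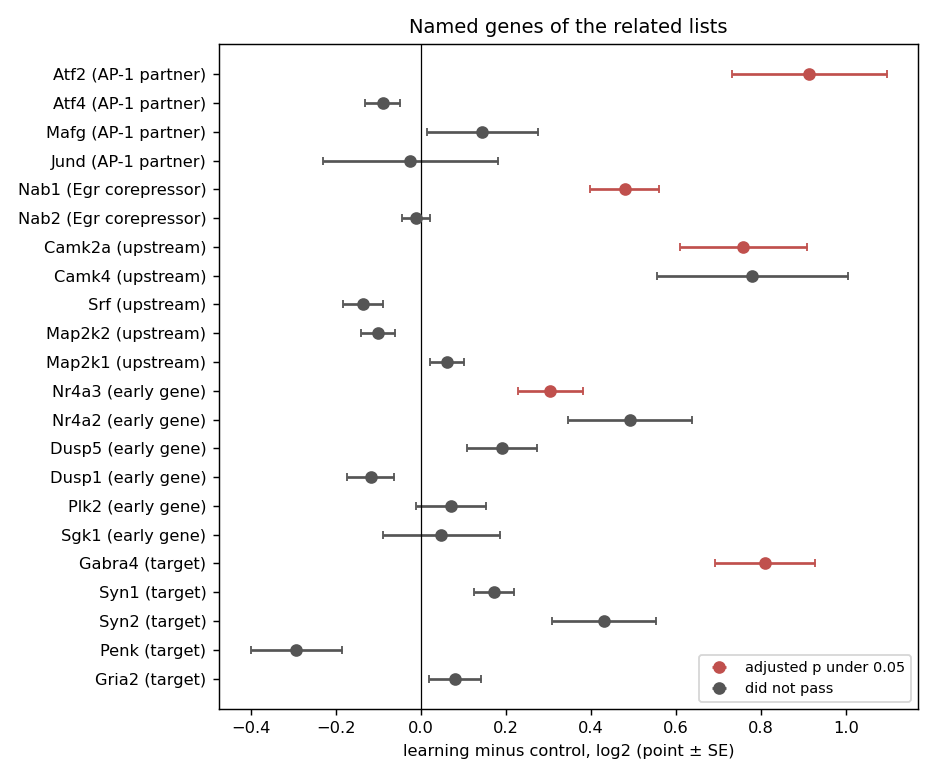
Learning minus control difference (x axis, log2, point ± SE from limma) of the named genes of the 5 lists. Atf2, Nab1, Camk2a, Nr4a3 and Gabra4 (red) passed at an adjusted p under 0.05, and the other named genes (grey) did not.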

How the data were processed

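CA3 RNA of 14 rats was hybridised to Affymetrix RAE230A arrays, 1 per animal, per the labels' protocols. The deposited values are on a log2 scale, read from their range and equal column means, and the submitters' processing notes name GCRMA, which uses probe sequence to model background and compresses differences near it. Its version is not given in the sources used here. The members and gene lists were chosen with earlier results of these data known.

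Genes came from the platform annotation, with symbols updated by Entrez ID against RefSeq (12754 of 12789 single-gene probe sets matched). The 57 control probe sets and 6346 dim ones (mean under the 40th percentile, 3.88) were not tested. On the other 9520, limma (version 3.58.1, R 4.3.3) estimated learning minus control through lmFit and eBayes, without covariates and with Benjamini-Hochberg adjustment. Dim members come from a fit without that filter. Correlations used numpy 2.4.6 and ranks from scipy 1.17.1, with exact permutation over 7 animals, or 100000 permutations within groups over 14. The steps run on many probe sets were tested on simulated data. All members were named. Of each list, the 4 genes of lowest p, the 2 brightest and any called one were named, and the 5 genes most like Fos and Egr1. Alternatives covered the filter, moderation, array weights, normalization, covariates and left-out animals. The labels used here give no batch. The number of arrays limits the precision.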

Additional observations from a re-analysis of the deposited data

Results flagged for a closer look

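In 3 of the 28 groups checked (14 probe sets in 2 groups), 1 animal stood apart by Dixon's criterion at 95%, which chance meets in about 1 of 20 groups. Control animal 2 had a Fosb level of 4.997, where the next control animal had 4.63. Learning animal 7 had a Jun level of 9.09 at the brightest Jun probe set, where the next lowest learning animal had 9.37. Learning animal 2 had an Egr3 level of 2.63, where the next had 2.59, at a probe set that is dim.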

How the results depend on the processing

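No member was called under any of 356 alternatives (lowest limma adjusted p = 0.066, for Egr2), and 347 kept the direction. Over all probe sets, 319 were called, against 158 without the dim filter, 39 with the Gapdh ratio as covariate and 161 with the dentate marker mean. Alternatives chosen after seeing the data gave 177 (hexokinase ratio as covariate), 143 (mean of the spike-in controls) and 145 (control animals 3 and 5 left out, which have the highest hexokinase ratios). Leaving out 1 animal gave 163 to 352, and the count moved by over 1.5 times without learning animals 3, 4, 6 or 7 or control animals 1, 2 or 3. The cause was not tested. With 1 animal left out, the sign turned for the dim Fos probe set (-0.0029 to 0.0048), the dimmest tested Jun one (-0.128 to 0.0203), Egr4 (-0.0217 to 0.011), Jund (-0.116 to 0.142) and Sgk1 (-0.0218 to 0.123). Median centring turned the dim Egr2 probe set (0.00027).

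Spread had 252 probe sets at an unadjusted p under 0.05, against 1009 with deviations from the group mean and 290 to 453 with 1 animal left out. Without any 1 of the 7 control animals the count was at least 380, and without any 1 learning animal at least 290. With 1 animal left out, that group has an even number, and its median need not be an animal's own value. The measure itself thus changes when 1 animal is left out, and its part in the counts was not tested. Learning minus control differences in spread then ran from -0.0455 to 0.0675 for Fos, from -0.048 to 0.0211, from -0.0433 to 0.0021 and from -0.0275 to 0.0845 for the 3 Jun probe sets, from -0.0335 to 0.0312 for Junb, from -0.0282 to 0.0052 for Egr1, from -0.0202 to 0.0118 for Egr2 and from -0.0031 to 0.021 for Egr4, each turning sign.

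The replicate block gave 313 called probe sets and no member (limma adjusted p = 0.119 for Egr2 and 0.122 for Junb). Replicate numbers gave no pairing: deviations of same-numbered animals correlated from -0.16 to 0.13, with 2 of 7 pairs above 0.1, and 1 of 7 animals correlated best with its own number. Levels near background limit what can be said of Fosl2 and Egr3.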
